A study of Mus musculus with 12 samples.

Results

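Surface receptors of hematopoietic stem and progenitor cells, with a ligand, were represented by 9 genes: Kit, Cd34, Flt3, Ly6a, Procr, Tie1, Cd48, Cd27 and Angpt1. They were taken by symbol from a table of 19910 gene symbols. Of the 9, 8 encode surface proteins, and Angpt1 encodes a secreted ligand. RNA was sequenced from mouse bone marrow cells (C57Bl/6 strain) that had been transduced with retroviruses, and the labels call the cells of every group leukemia cells, the empty-vector group included. The marrow came from female C57BL/6J mice aged 6 to 10 weeks, and every group carries a pair of vectors. In the empty-vector group (EE) both were EMPTY. In the SETBP1 group (SE) they were SETBP1 (D868N) and EMPTY, in the NRAS group (EN) EMPTY and NRAS (G12D), and in the double group (SN) SETBP1 (D868N) and NRAS (G12D). Virus was produced in 293T17 cells, a clone of the human HEK293T line, and collected at 48 and 72 h. Each group has 3 libraries. The labels number them but do not say whether they came from separate mice, transductions or cultures, so the p-values measure only the spread between these libraries, which may be technical. In bulk RNA, fewer cells of a type and less RNA per cell cannot be told apart.

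Blood stem cells in the marrow are recognised by their surface proteins. In mouse, KIT together with SCA-1, the product of Ly6a, defines the stem and progenitor compartment. EPCR, the product of Procr, enriches for stem cells with long-term activity, whereas CD48, CD34 and FLT3 are gained as cells leave that state for multipotent progenitors. KIT and FLT3 are class III receptor tyrosine kinases that feed into RAS signalling when bound by stem cell factor and FLT3 ligand. TIE1 is the partner of TEK, the receptor for angiopoietin 1, which Angpt1 encodes. CD27 is a TNF receptor family member found on lymphocytes and on early progenitors. Kit is also high in mast cells, Cd34 in endothelium and mast cell precursors, and Procr and Tie1 in endothelium.

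Each library held 7085890 to 8864920 counts, and 10993 genes passed the low-count filter. All 9 genes passed it. Kit, Cd34, Ly6a, Cd48 and Angpt1 lay above its cutoff in 12 of 12 libraries, Flt3 and Procr in 11, Cd27 in 10 and Tie1 in 8. SETBP1 replicate 3 stood apart before any comparison: its log2 values correlated at 0.946 and 0.953 (Pearson r across genes, which are not independent replicates) with the other libraries of its group, against 0.984 to 0.991 for the other pairs within groups. The difference followed transcript length. Relative to SETBP1 replicates 1 and 2, the median gene with at most 1500 bases of merged exons was higher by 0.25 on the log2 scale, and the median gene with over 5000 bases differed by -0.48. The offsets of the 9 genes are single values beside medians over many genes, and the spread of single genes within a length range was not computed. Ly6a (1004 bases), Cd48 (1189 bases) and Procr (1597 bases) were offset by 0.69, 0.47 and 0.51. Kit (5253 bases), Tie1 (4551 bases), Angpt1 (4260 bases) and Flt3 (3657 bases) were offset by -1.89, -1.61, -1.16 and -3.38. Cd34 (2610 bases) and Cd27 (1559 bases) were offset by -0.77 and -0.44. The comparison of the SETBP1 with the empty-vector group carries the same trend with length (medians of 0.27 for the shortest and -0.24 for the longest genes), and the comparisons of the NRAS and double groups with the empty vectors do not (-0.03 and -0.01, and 0.03 and -0.06). For the double against the NRAS group the medians were 0.03 and -0.05. Against the SETBP1 group the trend is reversed, with medians of -0.29 and 0.17 for the double group and -0.30 and 0.23 for the NRAS group. It is also reversed in the interaction term given below (-0.26 and 0.17). That term is the SETBP1 change with mutant NRAS minus the change without it. The part of transcript length in the results was not tested, and tests of the 9 genes that involve the SETBP1 group are given with and without replicate 3 where they are named below.

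**Figure D1:**
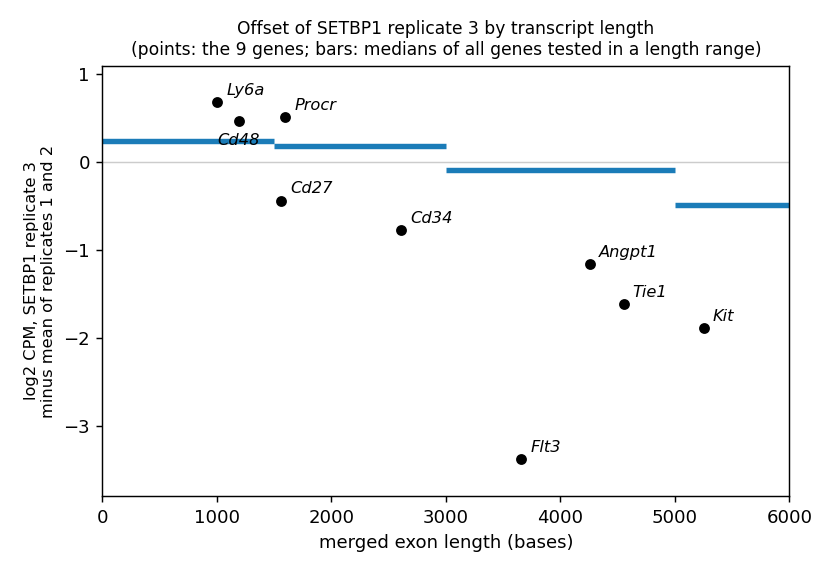
Difference in log2 CPM between SETBP1 replicate 3 and the mean of SETBP1 replicates 1 and 2 (y axis) against merged exon length in bases (x axis). Points are the 9 genes and bars the median of all genes tested within each length range. The 3 points above 0 are Ly6a, Cd48 and Procr, the longest of them 1597 bases, and Flt3 is lowest at -3.38.

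The sequences just before the start sites are shown for 4 genes that changed with mutant NRAS against empty vectors, since Cd34 and Procr moved one way there and Kit and Cd27 the other. They are bases upstream of the annotated starts (RefSeq and GENCODE) in the GRCm38 mouse genome (the build called mm10), 5′ to 3′ on the gene's strand, from RefSeq's promoter table (GRCm38.p6). That table gave a promoter for 7 of the 9 genes; Ly6a and Angpt1 had none. Capitals mark a match to the motif TGANTCA of AP-1, a dimer of FOS and JUN proteins.
Procr, chr2:155750967-155751116, plus strand: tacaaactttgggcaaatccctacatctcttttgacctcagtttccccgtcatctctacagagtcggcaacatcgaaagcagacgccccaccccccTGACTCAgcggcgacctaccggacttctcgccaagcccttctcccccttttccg
Cd34, chr1:194938571-194938818, plus strand: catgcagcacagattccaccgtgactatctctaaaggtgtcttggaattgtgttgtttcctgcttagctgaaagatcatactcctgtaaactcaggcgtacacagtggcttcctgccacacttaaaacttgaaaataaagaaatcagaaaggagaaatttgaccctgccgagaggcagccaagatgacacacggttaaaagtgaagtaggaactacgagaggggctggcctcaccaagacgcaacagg
Kit, chr5:75574737-75574915, plus strand: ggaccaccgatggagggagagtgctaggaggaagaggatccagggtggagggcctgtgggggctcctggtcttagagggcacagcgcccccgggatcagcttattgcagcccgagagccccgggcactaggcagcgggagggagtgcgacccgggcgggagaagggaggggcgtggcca
Cd27, chr6:125237028-125237277, minus strand: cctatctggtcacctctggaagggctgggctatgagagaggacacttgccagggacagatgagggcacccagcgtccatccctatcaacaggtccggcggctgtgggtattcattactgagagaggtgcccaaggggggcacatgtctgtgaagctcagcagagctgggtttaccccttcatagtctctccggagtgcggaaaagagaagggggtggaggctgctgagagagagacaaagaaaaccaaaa
The 250 bases before the RefSeq start were searched on both strands for 5 motifs. The AP-1 letters TGANTCA are present in 6.25% of the 15590 promoters of listed genes. For GATA factors the search used AGATAA, which 8.9% of those promoters hold, and for RUNX factors TGTGGT, which 11.8% hold. The letters searched for ETS factors were CCGGAA, held by 15.7%, and those for MEIS factors were TGACAG, held by 15%. The 7 promoters of the 9 genes held 2 matches, which overlapped no other motif: the AP-1 match TGACTCA in Procr, 54 bases before the GENCODE start and 154 before the RefSeq start, and the RUNX letters in Cd48, 76 bases before its RefSeq start. A match describes letters only, and where none was found it says nothing about the factor.

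Kit encodes the receptor for stem cell factor and lies on chromosome 5 at 75574916 to 75656722, plus strand (GENCODE annotation on GRCm38). Its level is given as normalised CPM, the count scaled to a common library size after TMM correction. Empty-vector replicates 1 to 3 had 61.0, 58.3 and 76.8. SETBP1 replicates had 49.0, 40.2 and 11.8. NRAS replicates had 25.9, 22.5 and 29.2, and double replicates 13.0, 12.5 and 14.0. The groups thus run downward from empty to SETBP1, NRAS and double, and SETBP1 replicate 3 is the library that breaks the order, below every double library. With NRAS against empty vectors Kit fell by 1.34 on the log2 scale (SE 0.34; adjusted p = 0.00771, edgeR's quasi-likelihood test with Benjamini-Hochberg adjustment over all genes tested), from 65.3 ± 10.0 to 25.8 ± 3.35 (SD, n = 3 each). In the double group it fell by 2.31 (SE 0.36; adjusted p = 1.69e-04), which is 4.95-fold lower, to 13.2 ± 0.741. Neither group overlapped the empty-vector libraries. From the SETBP1 to the double group it fell by 1.35 (adjusted p = 0.00856), a call that limma-voom did not make (adjusted p = 0.0665). From empty vectors to SETBP1 the difference was -0.96 (adjusted p = 0.0658), short of the threshold. Between neighbours the SETBP1 and NRAS groups did not differ past the threshold (-0.38, 95% interval -1.11 to 0.35), nor did the double and NRAS groups (-0.97, interval -1.76 to -0.19, adjusted p = 0.268). Without SETBP1 replicate 3 the step from empty vectors to SETBP1 was smaller, at -0.55, and passed (adjusted p = 0.00968), as did NRAS against SETBP1 at -0.79 (1.60e-04), double against NRAS at -0.97 (1.96e-04) and double against SETBP1 at -1.76 (1.23e-08).

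Flt3 encodes the receptor for FLT3 ligand, on chromosome 5 at 147330741 to 147400489, minus strand. Counts were low. The empty vectors gave 34 to 44 counts a library, the NRAS group 11, 21 and 31, and the double group 13, 18 and 22. In the SETBP1 group the counts were 43, 35 and 2, the last in replicate 3. Mean normalised CPM was 4.73 ± 0.359 in the empty vectors, 3.33 ± 2.70 with SETBP1, 2.74 ± 1.24 with NRAS and 2.36 ± 0.573 with both (SD, n = 3 each). The NRAS and double libraries lay below every empty-vector library. No comparison of Flt3 passed the threshold with all 12 libraries; the double group was 1.99-fold lower than the empty vectors, with a 95% interval of -2.32 to 0.33 on the log2 scale. Without SETBP1 replicate 3 the double group passed at -0.99 (adjusted p = 0.0141) and the NRAS group at -0.78 (0.0495), while the SETBP1 group differed from the empty vectors by 0.05 (0.945), against -0.51 with all libraries (0.565).

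Tie1 encodes an orphan-type receptor tyrosine kinase that pairs with TEK, on chromosome 4 at 118471191 to 118490061, minus strand. It had 30 to 53 counts in the empty vectors, 17, 27 and 6 in SETBP1 replicates 1 to 3, 17 to 23 in the NRAS group and 6 to 10 in the double group. Mean normalised CPM was 4.83 ± 0.934, 2.10 ± 1.41, 2.59 ± 0.442 and 1.15 ± 0.275 in that order (SD, n = 3 each). Each mutant group lay below all empty-vector libraries. The fall passed the test in the double group, at -2.05 on the log2 scale (SE 0.46; adjusted p = 0.00284), 4.14-fold lower. The SETBP1 group (-1.22, adjusted p = 0.0668) and the NRAS group (-0.90, adjusted p = 0.115) missed the threshold. Leaving out SETBP1 replicate 3 brought the NRAS group past it (adjusted p = 0.0201), and leaving out SETBP1 replicate 2, the highest of its group, brought the SETBP1 group past it (-1.80, adjusted p = 0.0241). The SETBP1 difference shrank to -0.81 when replicate 3 was the library left out (adjusted p = 0.116).

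Angpt1, the ligand of the TIE receptor system, lies on chromosome 15 at 42424723 to 42676977, minus strand. Empty-vector libraries had 27.2, 21.2 and 27.7 normalised CPM, SETBP1 libraries 20.1, 12.2 and 6.86, NRAS libraries 21.7, 24.1 and 37.5, and double libraries 21.1, 23.2 and 19.9. The SETBP1 libraries were the lowest apart from replicate 1, which overlapped the double group, and the other groups overlapped each other. With SETBP1 alone Angpt1 fell by 0.96 on the log2 scale (SE 0.30; adjusted p = 0.0477), from 25.4 ± 3.61 to 13.0 ± 6.67 (SD, n = 3 each). That call was lost when 10 of the 12 libraries were left out in turn (adjusted p from 0.0544 to 0.147), the exceptions being SETBP1 replicate 1 and NRAS replicate 3. With SETBP1 replicate 3 left out the difference was -0.65 (adjusted p = 0.0544). The NRAS group was higher than the SETBP1 group by 1.09 (adjusted p = 0.0107), and not past the threshold without NRAS replicate 3 (0.80, adjusted p = 0.0706); without SETBP1 replicate 3 it was 0.78 (adjusted p = 0.00775). Neither the NRAS group (0.13, interval -0.49 to 0.75) nor the double group (-0.24, interval -0.87 to 0.38) differed from the empty vectors past the threshold.

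Cd34 encodes a sialomucin of progenitors, vessel walls and mast cell precursors, on chromosome 1 at 194938819 to 194961279, plus strand. It moved opposite to Kit. Normalised CPM was 92.5, 107 and 95.5 in the empty vectors and 144, 152 and 86.5 in SETBP1 replicates 1 to 3. It was 172, 227 and 267 in the NRAS group and 283, 283 and 259 in the double group. All NRAS and double libraries exceeded all empty-vector and SETBP1 libraries. Cd34 rose with NRAS by 1.17 on the log2 scale (SE 0.19; adjusted p = 2.78e-04), to 222 ± 48.0 from 98.3 ± 7.61 (SD, n = 3 each). It rose with both mutants by 1.48 (SE 0.19; adjusted p = 2.56e-05), 2.80-fold, to 275 ± 13.8. Against the SETBP1 group the double group rose by 1.11 (adjusted p = 3.07e-04) and the NRAS group by 0.80 (adjusted p = 0.00348), or by 0.90 and 0.59 without SETBP1 replicate 3 (adjusted p = 6.40e-06 and 6.47e-04). The top pair of groups, double and NRAS, did not differ past the threshold (0.31, interval -0.08 to 0.70). Nor did the bottom pair, SETBP1 and empty (0.37, interval -0.03 to 0.77), unless SETBP1 replicate 3 was left out (0.59, adjusted p = 0.00350).

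Procr encodes the endothelial protein C receptor, on chromosome 2 at 155751117 to 155755471, plus strand; its upstream sequence with the AP-1 letters is printed above. Counts in the 3 libraries of each group were 8, 13 and 12 with empty vectors, 18, 22 and 31 with SETBP1, 41, 53 and 44 with NRAS, and 85, 63 and 78 with both. In normalised CPM the group means were 1.39 ± 0.433, 2.90 ± 0.750, 6.06 ± 0.969 and 10.1 ± 1.94 (SD, n = 3 each). The 4 groups did not overlap: each library of a group exceeded each library of the group before it. With NRAS and with both mutants, Procr had the largest rise of the 9 genes over empty vectors. It rose by 2.13 on the log2 scale with NRAS (SE 0.32; adjusted p = 1.91e-04) and by 2.88 with both mutants (SE 0.31; adjusted p = 7.26e-06), a 7.34-fold difference from few counts. Over the SETBP1 group it rose by 1.80 with both (adjusted p = 2.11e-04) and by 1.05 with NRAS alone (adjusted p = 0.0107), or by 2.01 and 1.26 without SETBP1 replicate 3 (adjusted p = 2.13e-05 and 0.00306). Adding SETBP1 made smaller differences (1.08 and 0.74) than adding NRAS (2.13 and 1.80), a contrast that was not tested. SETBP1 against empty was 1.08 (SE 0.34; adjusted p = 0.0485), a call lost in 11 of 12 fits that each left out a library (adjusted p from 0.0556 to 0.169), the exception being SETBP1 replicate 1. It was 0.87 without SETBP1 replicate 3 (adjusted p = 0.132). Double against NRAS was 0.74 (interval 0.17 to 1.32, adjusted p = 0.236).

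Ly6a encodes SCA-1, a GPI-anchored surface protein, on chromosome 15 at 74994877 to 74998031, minus strand. The Ly6 genes beside it have similar sequences, and reads could be split between them, so its level is uncertain to that extent. Normalised CPM was 359, 458 and 490 with empty vectors, 610, 672 and 1032 with SETBP1, 272, 347 and 273 with NRAS, and 316, 314 and 383 with both. The SETBP1 libraries were highest without overlap, and the NRAS libraries lay below all empty-vector libraries. Ly6a rose with SETBP1 by 0.82 on the log2 scale (SE 0.18; adjusted p = 0.0114), from 436 ± 68.3 to 771 ± 228 (SD, n = 3 each). The rise was 0.56 without SETBP1 replicate 3 (adjusted p = 0.00354), and without empty-vector replicate 1 the call was lost (0.71, adjusted p = 0.0584). With NRAS it fell by 0.55 (SE 0.18; adjusted p = 0.0299), a call lost without empty-vector replicate 2 or 3 or NRAS replicate 1 or 3 (adjusted p from 0.0855 to 0.107). Against the SETBP1 group it fell by 1.38 with NRAS (adjusted p = 6.08e-05) and fell by 1.19 with both (adjusted p = 1.48e-04). These differences were -1.11 and -0.92 without SETBP1 replicate 3 (adjusted p = 2.97e-07 and 2.55e-06). The double group differed from the empty vectors by -0.37 (adjusted p = 0.118), past the threshold under library-size scaling (-0.49, adjusted p = 0.0264) and without SETBP1 replicate 3 (-0.37, adjusted p = 0.00682). The double and NRAS groups did not differ past the threshold (0.18, interval -0.20 to 0.57).

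Cd48 encodes a GPI-anchored protein of the SLAM family, on chromosome 1 at 171682009 to 171705258, plus strand. Normalised CPM was 131 to 141 in the empty vectors, 170, 155 and 225 in SETBP1 replicates 1 to 3, 112 to 119 in the NRAS group and 130 to 154 in the double group. Its range was narrow, with the SETBP1 group highest and the NRAS group lowest. Cd48 rose with SETBP1 by 0.42 on the log2 scale (SE 0.12; adjusted p = 0.0300), and by 0.25 without replicate 3 (adjusted p = 0.0429); leaving out any of the empty-vector libraries lost the call (adjusted p from 0.0595 to 0.120). From the SETBP1 level it fell by 0.68 with NRAS (adjusted p = 5.09e-04) and fell by 0.39 with both (adjusted p = 0.0164, and 0.0729 and 0.0553 without double replicates 1 and 3). Leaving out SETBP1 replicate 3 brought these to -0.51 (adjusted p = 4.57e-05) and -0.21 (adjusted p = 0.0346). The NRAS and empty-vector groups differed by -0.26 (adjusted p = 0.105; 0.0165 under library-size scaling and 0.00618 without SETBP1 replicate 3). The double and empty-vector groups differed by 0.03 (interval -0.22 to 0.28).

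Cd27 encodes a TNF receptor family member, on chromosome 6 at 125232622 to 125237010, minus strand. Its counts were 65, 44 and 36 in the empty vectors, 97, 101 and 77 with SETBP1, 5, 21 and 10 with NRAS, and 15, 11 and 12 with both. Mean normalised CPM was 5.88 ± 1.19, 11.3 ± 2.07, 1.59 ± 1.13 and 1.71 ± 0.354 in that order (SD, n = 3 each). The groups with mutant NRAS were low and overlapped each other, while the SETBP1 group was highest without overlap. With NRAS Cd27 fell by 1.89 on the log2 scale (SE 0.39; adjusted p = 0.00207), and with both mutants it fell by 1.79 (SE 0.39; adjusted p = 0.00216), each from the empty-vector level. Against the SETBP1 group it fell by 2.83 with NRAS (SE 0.38; adjusted p = 6.96e-05) and fell by 2.72 with both (SE 0.38; adjusted p = 6.79e-05), 7.10-fold and 6.60-fold lower. These differences were -2.96 and -2.86 without SETBP1 replicate 3 (adjusted p = 1.34e-06 and 1.55e-06). The SETBP1 group was above the empty vectors by 0.94 (adjusted p = 0.0652), and passed without SETBP1 replicate 3 (1.07, adjusted p = 0.0186), without NRAS replicate 1 or 2 (0.94, adjusted p = 0.0493 and 0.0395) and by DESeq2 (adjusted p = 0.0378) and limma-voom (adjusted p = 0.0287). The double and NRAS groups differed by 0.10, with an interval of -0.86 to 1.07.

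**Figure D2:**
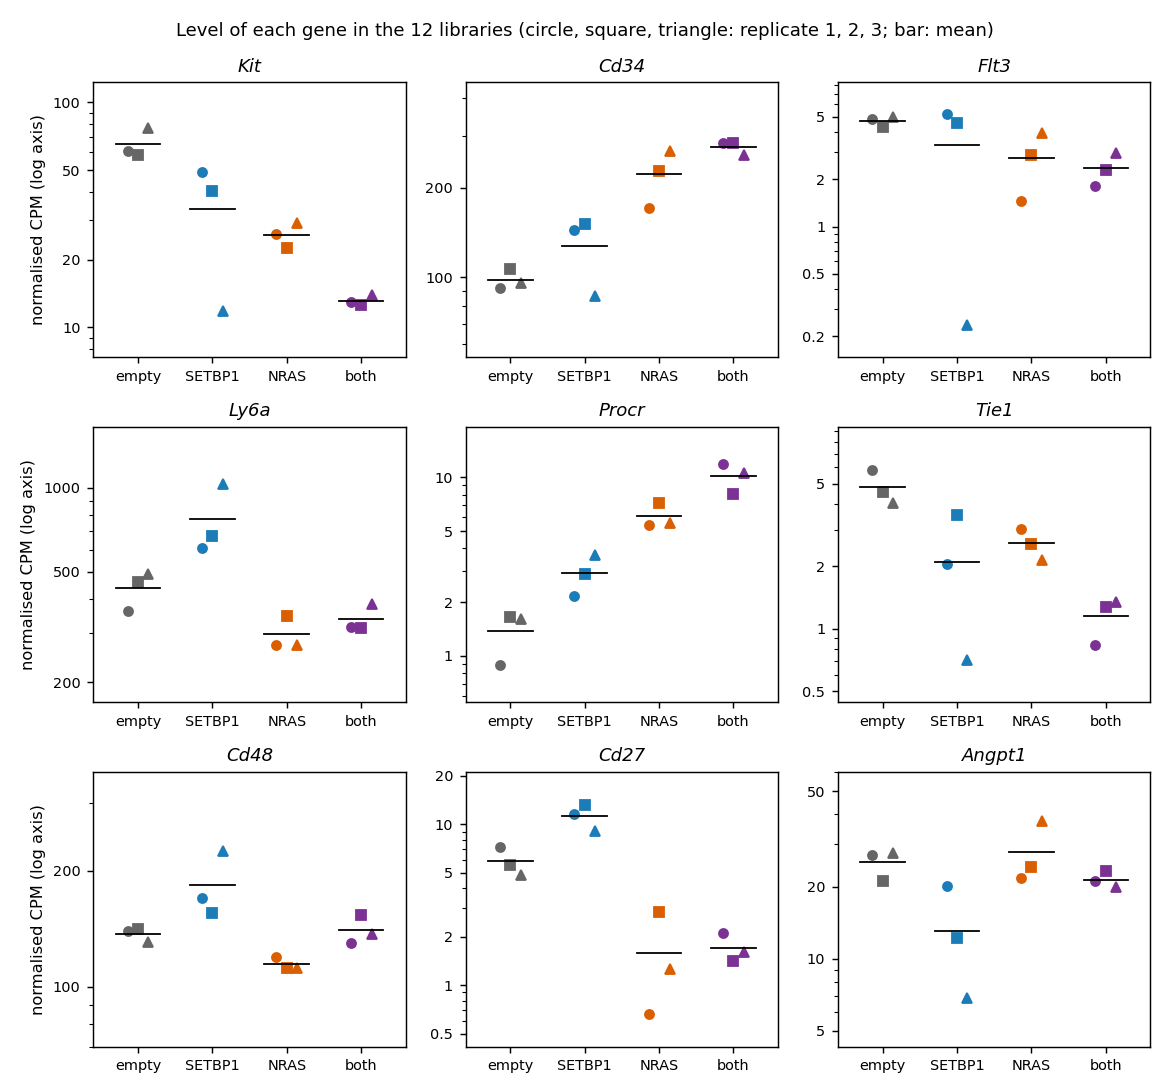
Normalised CPM (log axis) of each of the 9 genes in the 12 libraries, by group (x axis: empty vectors, SETBP1, NRAS, both); circles, squares and triangles are replicates 1, 2 and 3, and bars are group means. Kit steps down and Procr steps up across the groups, and SETBP1 replicate 3 is the lowest library of its group for Kit, Cd34, Flt3, Tie1, Cd27 and Angpt1.

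Counted over the 9 genes, NRAS alone against empty vectors gave 5 calls, 2 higher (Cd34, Procr) and 3 lower (Kit, Ly6a, Cd27), a comparison in which 32.5% of all genes tested were called, 17.0% higher and 15.5% lower. Their median log2 difference was -0.55, against -0.01 over all genes. Leaving out SETBP1 replicate 3, which is in neither group, gave 8 calls, with Flt3, Tie1 and Cd48 added, while 11112 genes were tested and the share called over all of them rose to 47.0%. Both mutants against empty vectors gave 5 calls, 2 higher (Cd34, Procr) and 3 lower (Kit, Tie1, Cd27), with a background of 40.6%, 20.8% higher and 19.8% lower, and medians of -0.37 and -0.01. These became 7 calls without SETBP1 replicate 3, with Flt3 and Ly6a added, and the share over all genes rose to 53.7%. Under scaling by library size alone the median of all genes shifts to -0.10 with NRAS and -0.13 with both mutants, and the split of calls over all genes moves from 1868 higher and 1708 lower to 1379 and 2265 with NRAS, and from 2282 and 2180 to 1656 and 2908 with both. The calls on the 9 genes kept their directions under that scaling, which added Cd48 with NRAS and Ly6a with both, each as lower. These comparisons share the empty-vector libraries.

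SETBP1 alone against empty vectors gave 4 calls, 3 higher (Ly6a, Procr, Cd48) and 1 lower (Angpt1), where 14.9% of all genes tested were called, 8.31% higher and 6.55% lower. The medians were 0.37 for the 9 genes and -0.01 for all. Which genes passed depended on single libraries. With SETBP1 replicate 3 left out there were 5 calls, Kit lower and Cd34, Ly6a, Cd48 and Cd27 higher, with Procr and Angpt1 lost, where 15.3% of all genes were called. No gene of the 9 passed without empty-vector replicate 1, and 1 (Ly6a) without empty-vector replicate 2 or 3. In turn, 2 (Ly6a and Cd48) passed without any of the double libraries, which are not in this comparison, and 0 in a fit of the 6 libraries compared. In that last fit 110 of all genes passed, the fewest of the alternatives, which ran up to 3191. Scaling by library size alone left 2 (Ly6a and Cd48). Genes over 3000 bases (Kit, Flt3, Tie1, Angpt1) all had negative differences with SETBP1 and those under 3000 bases all positive ones, the direction of the medians of all genes by length. Without replicate 3 the same held except for Flt3, at 0.05. The same split of signs was seen for both mutants against NRAS, which holds no library of the SETBP1 group. None of the 9 was called there, and the medians of all genes were 0.03 for the shortest and -0.05 for the longest. The part of length in these signs was not tested.

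Adding mutant SETBP1 to NRAS gave 0 calls among the 9 genes by edgeR's test, by DESeq2 and by limma-voom. By edgeR's test 4 (Kit, Procr, Tie1, Cd48) had an unadjusted p under 0.05, as did 1283 of the 10993 genes tested. Over all genes 1.91% were called, 0.528% higher and 1.38% lower. Kit (-0.97) and Tie1 (-1.15) were lower and Procr (0.74) and Cd48 (0.29) higher in all 3 double libraries than in any NRAS library. How many of all genes lay apart in this way was not counted. Without SETBP1 replicate 3, which is in neither group, Kit and Cd48 passed (adjusted p = 1.96e-04 and 0.0156), with 7.52% of all genes called. Fitting only the 6 libraries compared gave 3 calls, Kit (adjusted p = 3.35e-04), Procr (0.0407) and Cd48 (0.0200). Over all genes the calls ran from 86 to 1038 across the alternatives, that fit included.

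Adding mutant NRAS to SETBP1 gave 6 calls, 2 higher (Cd34, Procr) and 4 lower (Kit, Ly6a, Cd48, Cd27), where 42.4% of all genes were called, 20.9% higher and 21.5% lower. The medians were -0.48 for the 9 genes and 0.00 for all. Without SETBP1 replicate 3, Flt3 (-1.04, adjusted p = 0.0215) and Tie1 (-1.24, adjusted p = 0.0186) passed as well, making 8, where 46.5% of all genes were called. Angpt1, at 0.71 with all libraries (adjusted p = 0.0732), passed without SETBP1 replicate 1 (1.17, adjusted p = 0.00392) and was at 0.40 without SETBP1 replicate 3 (adjusted p = 0.152). Scaling by library size moved the split over all genes from 2293 higher and 2368 lower to 1720 and 2888 and changed no call on the 9. NRAS alone against SETBP1 alone gave 6 calls, 3 higher (Cd34, Procr, Angpt1) and 3 lower (Ly6a, Cd48, Cd27), with 40.9% of all genes called, 20.8% higher and 20.1% lower. Kit was added as lower without SETBP1 replicate 3, for 7, with 43.0% of all genes called.

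The change made by NRAS can be read in comparisons that share no library: NRAS against empty vectors, and both mutants against SETBP1. All 9 genes had the same sign in both, as did 78.5% of all genes tested, and 5 were called in both, as were 24.7% of all genes: Kit (-1.34 and -1.35), Cd34 (1.17 and 1.11), Ly6a (-0.55 and -1.19), Procr (2.13 and 1.80) and Cd27 (-1.89 and -2.72). Without SETBP1 replicate 3 these became 8 of the 9 and 34.1% of all genes. The change made by SETBP1, read likewise, also had the same sign for all 9, as for 64.3% of all genes; none of the 9 was called in both, and 1.08% of all genes were. Leaving out SETBP1 replicate 3 put Kit (-0.55 and -0.97) and Cd48 (0.25 and 0.29) among those called in both, with 3.67% of all genes, and gave Flt3 opposite signs (0.05 and -0.22). The interaction term tests whether the changes differ. It called none of the 9 and 0.0455% of all genes by edgeR's test, and none of the 9 by DESeq2 and limma-voom. By edgeR's test 1 of the 9, Ly6a, had an unadjusted p under 0.05, as did 1420 of the 10993 genes tested. For Kit the interaction was -0.01 on the log2 scale (95% interval -1.04 to 1.01) and for Cd34 -0.06 (interval -0.62 to 0.49). For Procr it was -0.34 (interval -1.25 to 0.58), for Cd27 -0.83 (interval -2.03 to 0.36) and for Angpt1 0.58 (interval -0.32 to 1.48). Ly6a had -0.64 (interval -1.18 to -0.10, adjusted p = 0.343), and -0.37 without SETBP1 replicate 3 (adjusted p = 0.268). That omission also moved the term to -0.43 for Kit (unadjusted p = 0.0435, adjusted p = 0.314), -0.28 for Cd34, -0.13 for Procr, -0.96 for Cd27 and 0.27 for Angpt1. For Flt3 it went from 0.30 to -0.26, for Tie1 from 0.07 to -0.34 and for Cd48 from -0.13 to 0.05, and again none of the 9 was called. With all libraries the intervals leave room for differences of over 1 log2 unit in Kit, Flt3, Ly6a, Procr, Tie1, Cd27 and Angpt1.

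**Figure D3:**
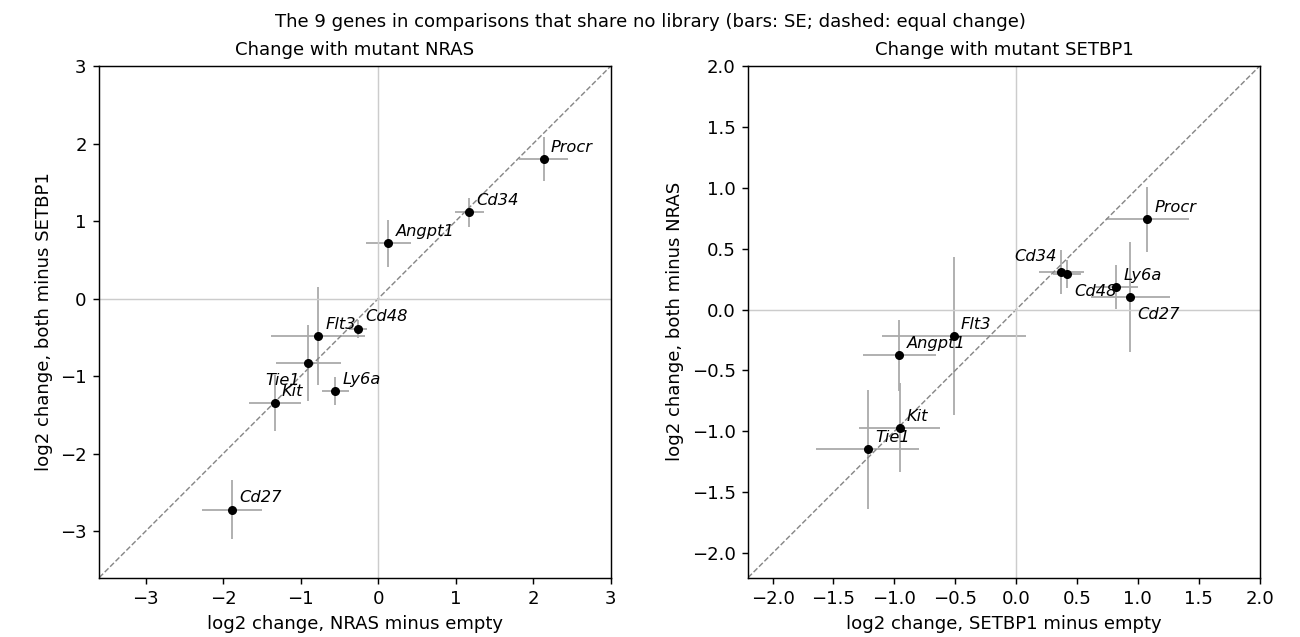
Log2 change of the 9 genes with mutant NRAS (left: without SETBP1 on x, with SETBP1 on y) and with mutant SETBP1 (right: without NRAS on x, with NRAS on y); bars are standard errors and the dashed line marks equal change. In each panel every point has the same sign on both axes, from Cd27 (-1.89 and -2.72) to Procr (2.13 and 1.80) on the left.

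Levels can be compared between genes only per length, here as RPKM, which divides the normalised CPM by the merged exon length in kilobases. In the empty vectors the order was Ly6a (434 ± 68.1), Cd48 (115 ± 4.67), Cd34 (37.7 ± 2.92), Kit (12.4 ± 1.90), Angpt1 (5.95 ± 0.846), Cd27 (3.77 ± 0.765), Flt3 (1.29 ± 0.0983), Tie1 (1.06 ± 0.205) and Procr (0.867 ± 0.271) (SD, n = 3 each). The libraries of Tie1 overlapped those of Flt3 above and of Procr below, while Flt3 and Procr did not overlap. In the double group Ly6a (336 ± 38.8), Cd48 (118 ± 10.2) and Cd34 (105 ± 5.30) led, with Cd34 close to Cd48. By mean, Procr had moved from the last to the fourth place, at 6.35 ± 1.21, above Angpt1 (5.02 ± 0.386) and Kit (2.51 ± 0.141). Cd27 (1.09 ± 0.227), Flt3 (0.646 ± 0.157) and Tie1 (0.254 ± 0.0605) followed. The double libraries of Procr and Angpt1 overlapped: in replicate 2 Procr was at 5.05 and Angpt1 at 5.44.

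The ligands and partners of these genes form a list of 15, of which 14 matched a row and 8 could be tested. Against empty vectors, 3 passed with SETBP1 (1 higher, 2 lower), 6 with NRAS (5 higher, 1 lower) and 7 with both (5 higher, 2 lower), with list medians of -0.11, 0.52 and 0.52; over all genes 14.9%, 32.5% and 40.6% passed. Kitl, which encodes stem cell factor, had 0 to 13 counts a library and was not tested. Tek, the receptor that TIE1 pairs with, had 0 to 14 counts. Cd70, the ligand of CD27, and Proc, the ligand of EPCR, had 0 counts in each of the 12 libraries, which allows up to 3 counts a library. Angpt2, the second angiopoietin, rose by 2.12 on the log2 scale with NRAS (adjusted p = 0.00647) from 3 to 6 counts a library to 20 to 23, and by 2.13 with both (adjusted p = 0.00497). Thbd, encoding thrombomodulin, which works beside EPCR in protein C activation, fell by 1.36 with NRAS (adjusted p = 0.00667) and fell by 1.03 with both (adjusted p = 0.0221), while Procr rose. F2r, encoding the thrombin receptor PAR1, fell by 1.14 with SETBP1 (adjusted p = 0.0300; -0.74 without SETBP1 replicate 3, adjusted p = 0.00168) and fell by 1.44 with both against NRAS (adjusted p = 0.0322). Selp, encoding P-selectin, rose by 1.06 with NRAS (adjusted p = 1.88e-04).

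Of 27 listed adaptors, kinases and inhibitors of KIT, FLT3 and TIE signalling, 26 were tested. With SETBP1, 7 passed (1 higher, 6 lower), with NRAS 8 (4 higher, 4 lower) and with both 11 (5 higher, 6 lower). With NRAS and with both mutants these shares are near those of all genes (32.5% and 40.6%). With SETBP1 the share over all genes was 14.9%. Without SETBP1 replicate 3 the counts were 9, 18 and 16, where 15.3%, 47.0% and 53.7% of all genes were called. Fyn, a SRC family kinase, rose by 1.42 with NRAS (adjusted p = 4.94e-07) and by 1.82 with both (adjusted p = 2.53e-08). Sla, encoding the adaptor SLAP, fell by 1.29 with NRAS (adjusted p = 6.84e-08) and fell by 2.22 with both (adjusted p = 3.91e-10), and it was the list's 1 call between both mutants and NRAS (-0.93, adjusted p = 7.05e-05). Its mean normalised CPM followed the same order of groups as Kit: 168, 111, 69.0 and 36.2. Jak2 fell by 1.02 with SETBP1 (adjusted p = 0.00147), and by a like amount without SETBP1 replicate 3 (-0.98, adjusted p = 1.40e-04). Sh2b3, encoding the inhibitor LNK, rose by 0.60 with NRAS (adjusted p = 0.00529).

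Close relatives of the 9 genes did not follow them uniformly. For the counts below, 14.9% of all genes passed with SETBP1 (8.31% higher, 6.55% lower). With NRAS 32.5% passed (17.0% higher, 15.5% lower), and with both 40.6% (20.8% higher, 19.8% lower). Among the Ly6 family, 4 of 10 matched genes were tested, and with SETBP1 1 passed: Ly6i rose by 2.39 (adjusted p = 7.09e-04), or 2.04 without SETBP1 replicate 3 (adjusted p = 2.57e-06), alongside Ly6a. With NRAS 3 of the 4 fell: Ly6i fell by 1.49 (adjusted p = 0.00292) and Ly6c1 fell by 1.54 (adjusted p = 0.0115). Of 7 SLAM family genes tested, 4 rose with SETBP1, as Cd48 did, 1 fell with NRAS, and 4 passed with both (3 higher, 1 lower). Without SETBP1 replicate 3 the counts were 3, 2 and 4, against 15.3%, 47.0% and 53.7% of all genes. The other class III receptor kinases went their own ways. Csf1r rose by 0.53 with SETBP1 (adjusted p = 0.0205), or 0.28 without SETBP1 replicate 3 (adjusted p = 0.00466), and Pdgfrb rose by 1.96 with NRAS (adjusted p = 0.0133) from a mean of 1.59 to 6.15 normalised CPM. Of 11 TNF receptor genes tested, 5 fell with NRAS and 7 fell with both against 1 that rose. The list of other surface proteins of stem and progenitor cells had 25 genes tested, of which 8 passed with SETBP1 (2 higher, 6 lower), 15 with NRAS (7 higher, 8 lower) and 18 with both (7 higher, 11 lower), against 14.9%, 32.5% and 40.6% of all genes. Il7r, the interleukin 7 receptor, rose by 1.78 with NRAS (adjusted p = 3.77e-04) and by 2.93 with both (adjusted p = 2.44e-06), whereas Esam, a stem cell and endothelial adhesion protein, fell by 2.28 (adjusted p = 0.0109) and fell by 3.31 (adjusted p = 0.00168). Among 25 transcription factors of stem and progenitor cells, 11 passed with SETBP1 (6 higher, 5 lower), 8 with NRAS (3 higher, 5 lower) and 14 with both (6 higher, 8 lower). The count with NRAS is near the 32.5% of all genes. Without SETBP1 replicate 3 the counts were 11, 12 and 18, where 15.3%, 47.0% and 53.7% of all genes were called. The count with NRAS is near that share too.

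Markers of other cell types moved with several of the 9 genes, and their part in the results was not tested. The mast cell and basophil list matched 11 of 11 genes, and its summed level was 3138 to 3228 normalised CPM in the empty vectors, 1698 to 2433 with SETBP1, 733 to 1240 with NRAS and 409 to 596 with both, the same order as Kit. Prss34 and Mcpt8 made up most of the sum in the empty vectors, with means of 1758 and 630. Of the genes tested, Prss34, Mcpt8, Cpa3, Fcer1a and Ms4a2 ran in that order by mean. Gata2, Hdc, Cma1 and Tpsb2 did not (Tpsb2 means of 7.74, 11.3, 3.70 and 6.65). Of 9 tested, 6 were called lower with SETBP1, 8 with NRAS and 7 with both, and none was called higher. Over all genes 6.55%, 15.5% and 19.8% were called lower. With SETBP1 replicate 3 left out, 1 of the 9 was called higher with NRAS. Fcer1a, encoding the alpha chain of the IgE receptor, fell by 3.36 with NRAS (adjusted p = 7.12e-08), whereas Hdc, histidine decarboxylase, had a mean of 225 in the empty vectors and 312 with NRAS (0.47, adjusted p = 0.0741). Mcpt4 was at 0 in every mutant library. In SETBP1 replicate 3 the sum was 2224, between those of replicates 1 and 2, while Kit was at 11.8 normalised CPM against 49.0 and 40.2.

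**Figure D4:**
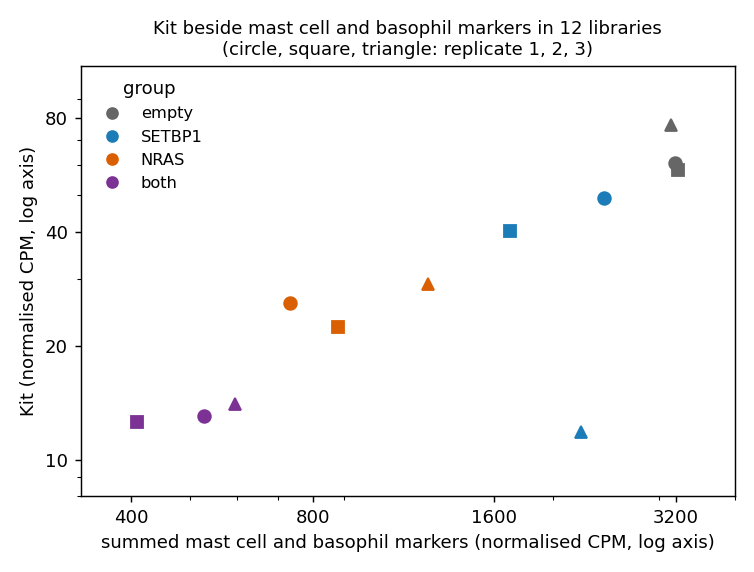
Kit (normalised CPM, log axis) against the summed mast cell and basophil markers (normalised CPM, log axis) in the 12 libraries; colours are groups and symbols replicates 1, 2 and 3. Both run from high in the empty vectors to low in the double group, and SETBP1 replicate 3 (triangle at 11.8 for Kit and 2224 for the sum) lies off that run. In the empty vectors Prss34 and Mcpt8 make up most of the sum.

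For Procr, Cd34 and Tie1 the other source in marrow would be endothelium. Its list summed to 148 to 169 normalised CPM in the empty vectors, 124 to 132 with SETBP1, 216 to 312 with NRAS and 212 to 238 with both, and of 5 tested 4 passed with NRAS (2 higher, 2 lower). Over all genes 32.5% passed with NRAS. Robo4 and Cldn5 were at 0 in all 12 libraries, Cdh5, which defines endothelium, had 0 to 4 counts a library, and Tek had 0 to 14. Pecam1, which leukocytes also express, made up most of the sum, with 99.4 to 114 in the empty vectors and 173 to 279 with NRAS. Vwf fell by 2.43 with NRAS (adjusted p = 2.43e-04), and Kdr had 0 to 4 counts in the empty vectors and 37 to 41 with both. For Cd27 the other source would be lymphocytes. Cd3e, Cd8a and Cd8b1 (8 of 9 T cell genes matched) and the B cell factor Pax5 (6 of 6 matched) were at 0 in all libraries. The T cell sum was 5.13 to 6.35 in the empty vectors, 4.34 to 5.36 with SETBP1, 9.38 to 10.8 with NRAS and 5.76 to 8.11 with both, which is not the order of Cd27. The B cell sum was 19.7 to 21.2, 18.9 to 22.0, 13.1 to 16.6 and 7.93 to 9.37, and the NK cell sum 3.81 to 4.76, 2.41 to 5.68, 2.30 to 4.56 and 0.839 to 2.56. The B cell sum was lower with NRAS than in every empty-vector and SETBP1 library, and lower still with both. The NK cell sum with both lay below the empty-vector range, while the NRAS range overlapped it. The B cell gene tested, Cd79b, fell by 0.75 with NRAS (adjusted p = 0.00157) and fell by 1.35 with both (adjusted p = 1.18e-05), and the NK cell gene tested, Klrk1, fell by 1.33 (adjusted p = 0.0328) and fell by 1.71 (adjusted p = 0.00851), the direction of Cd27 in those groups. With SETBP1, where Cd27 was highest, neither was called (0.07 for Cd79b and 0.36 for Klrk1). Cd79b made up most of the B cell sum, with a mean of 19.2 in the empty vectors. Lck made up most of the T cell sum (5.33 there), so these sums rest mainly on single genes. Dendritic cell genes, which include Flt3, summed to 55.1 to 83.5, 116 to 142, 45.7 to 56.4 and 43.9 to 49.0. The largest part of that sum was H2-Aa, with means of 61.3, 115, 28.2 and 27.2 in that order of groups. Itgax was higher with mutant NRAS, with means of 2.60, 1.99, 16.6 and 12.8. Of 4 dendritic cell genes tested, 1 was called higher and 1 lower with NRAS, and likewise with both. Over all genes 32.5% and 40.6% were called in those comparisons. Angpt1 is made by marrow stroma, whose Cxcl12, Pdgfra and Dcn were at 0 in all libraries, with a list sum of 2.43 to 8.37 normalised CPM. Myeloid markers were abundant: the 7 monocyte and macrophage genes summed to 950 to 1602 over all libraries, and the 6 matched neutrophil genes from 10009 to 11198 in the empty vectors to 1518 to 1877 with both.

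Genes with the most similar patterns were found by Pearson's r of log2 CPM over the 12 libraries, as a description; the libraries, SETBP1 replicate 3 among them, are common to every pair. Kit was most like Chst15 (r = 0.983), Sorl1 (0.982) and Abca7 (0.977). Sorl1 had a mean of 301 normalised CPM in the empty vectors and 131, 120 and 63.9 with SETBP1, NRAS and both. Cd34 was most like Shmt1 (0.982), Calcrl (0.975) and Sdc3 (0.975). Calcrl, a receptor subunit for adrenomedullin and CGRP, had means of 12.6, 18.8, 97.0 and 154 in that order of groups. Procr was most like Impdh2 (0.981), C3ar1 (0.980) and Mrps10 (0.980), and C3ar1, the C3a receptor, had means of 85.7, 129, 211 and 292. Ly6a was most like its relative Ly6i (0.970), P2rx4 (0.969) and Blvrb (0.966), and Cd48 most like Mccc1 (0.980), Csf1r (0.972) and Grn (0.955). Cd27 was closest to Sirt3 (0.972), Gbp6 (0.968) and Stk25 (0.960), and Angpt1 to Atad2 (0.978), Calu (0.973) and Gapvd1 (0.972). Flt3 was closest to Vcpip1 (0.980), Gpr157 (0.959) and Ptprs (0.944), and Tie1 to Insr (0.969), Zfp874b (0.965) and Galnt2 (0.956). Within the 9 genes, r was 0.889 between Kit and Tie1, 0.872 between Cd34 and Procr, 0.854 between Ly6a and Cd48, and -0.861 between Kit and Procr. Angpt1 ran against Ly6a and Cd48, with r of -0.823 and -0.828.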

How the data were processed

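Gene counts of 12 libraries in 4 groups were analysed. The deposited table holds whole-number read counts per gene symbol, not normalised; the submitters' processing notes name STAR, DESeq2 and mm10, and the counting rule, strand setting and annotation are not given in the sources used here. Libraries were made from RNeasy micro RNA with a Takara ultra-low-input SMART-Seq kit, per the labels' protocols. Counts were scaled by TMM and filtered with filterByExpr (minimum count 10, minimum total 15), keeping 10993 genes with 99.9% of all counts, and fitted in R 4.3.3 with edgeR 4.0.16 (quasi-likelihood F test, 4 group means, all 12 libraries), with Benjamini-Hochberg adjustment over all genes tested and a threshold of 0.05. Standard errors and 95% intervals come from the F statistic. The script was tested on simulated data. Alternatives were DESeq2 1.42.0, limma 3.58.1 (voom, quality weights), other scalings and filters, a replicate block, only the groups compared, and each library left out; leaving out SETBP1 replicate 3 within the groups compared was added after seeing the data. Positions and exon lengths are from GENCODE M21 (GRCm38). Named were all 9 genes and, of each other list and comparison, at most the 2 largest rises and 2 largest falls past the threshold; the most similar genes are the 3 with the highest r. Values of Kdr, Cdh5, Tek, Pecam1 and Hdc and the untested partners were chosen after they were seen. The 9 genes and all lists were chosen with earlier results of these data known. Markers of plasma cells, megakaryocytes and erythroid cells were also summed.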

Additional observations from a re-analysis of the deposited data

How the results depend on the processing

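Of 1467 alternative values of single genes, 1359 kept their direction and side of the threshold, 51 lost the threshold, 57 gained it and 0 reversed; a sign change between values short of the threshold was counted as no reversal. For SETBP1 against empty vectors the 4 calls became 6 with DESeq2 and with limma-voom, 2 with library size scaling, 0 with only the groups compared, 1 with the replicate block and 0 at an adjusted p threshold of 0.01, and leaving out each library gave 0 to 5. For NRAS against empty vectors the 5 calls became 8 with only the groups compared and 8 with sample quality weights, and leaving out each library gave 4 to 8. For both mutants against NRAS the 0 calls became 3 with only the groups compared and 4 with sample quality weights (Kit, Cd34, Procr, Cd48), and leaving out each library gave 0 to 2. Sample quality weights also gave the most calls over all genes in these comparisons. With NRAS against empty vectors they gave 5586, where the main fit gave 3576. For both against NRAS they gave 1038, where the main fit gave 210. The cause was not tested. Over all genes the calls ran from 110 to 3191 for SETBP1 against empty vectors, 2289 to 5586 for NRAS, 86 to 1038 for both against NRAS, 3043 to 5185 for both against SETBP1, 2848 to 5116 for NRAS against SETBP1 and 1 to 351 for the interaction, whose split of 1 higher and 4 lower became 3 and 4 with library size scaling. Replicate numbers did not pair the libraries: of 18 same-numbered pairs 1 had a correlation of deviations over 0.1 (range -0.13 to 0.12), and 1 of 12 libraries correlated best with its own number. Depth limits Flt3, Procr, Tie1 and Cd27, each with libraries under 10 counts or near it.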

Other observations

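Platelet and erythroid genes also moved across the groups. Pf4, platelet factor 4, rose by 1.51 on the log2 scale with SETBP1 (adjusted p = 0.0105, edgeR; 0.90 without SETBP1 replicate 3, adjusted p = 0.00143) and by 1.07 with both mutants (adjusted p = 0.0158), while Gp1bb, a subunit of the platelet receptor for von Willebrand factor, fell by 2.09 with NRAS (adjusted p = 0.00201) and fell by 3.15 with both (adjusted p = 1.41e-04). The 7 megakaryocyte and platelet genes tested split, 2 higher with SETBP1, 4 lower with NRAS, and 1 higher and 5 lower with both. Over all genes 8.31% were called higher with SETBP1 and 15.5% lower with NRAS. With both mutants 20.8% of all genes were called higher and 19.8% lower. The 2 erythroid genes tested, Klf1 and Epor, fell with both mutants: the erythroid factor Klf1 fell by 3.32 (adjusted p = 0.00307), and the hemoglobin genes Hba-a1 and Hbb-bs were at 0 in all 12 libraries. The list of 4 plasma cell genes summed to 1048 to 1109 normalised CPM in the empty vectors, 879 to 1270 with SETBP1, 505 to 566 with NRAS and 479 to 495 with both. Nearly all of that sum was Xbp1, which other cells also express (means of 1059 in the empty vectors and 509 with NRAS), whereas Sdc1 rose by 0.86 with NRAS (adjusted p = 0.0237).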
